A study of Mus musculus with 2 samples.

Results

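Of 10 well-known target genes of the transcription factor p53, Trp53inp1 alone differed by more than 1.5-fold between 4T1 cells treated with AS and 4T1 cells treated with the vehicle, and it was higher with AS. Of all genes measured, 3.56% were higher and 2.01% lower beyond 1.5-fold. The genes are Mdm2, Ccng1, Cdkn1a, Btg2, Plk2, Aen, Phlda3, Trp53inp1, Sesn1 and Zmat3. They were taken by name from the deposited table, and all 10 were among its 14197 genes. 4T1 is a murine mammary carcinoma line, labelled WT (wild type), and astragalin (AS) is a plant flavonoid. AS was given at 20 μM for 24 h, and the control cells received the vehicle only. There was 1 RNA-seq library per condition, so no difference below has a replicate check, no p-value is given, and intervals cover counting error only. The study asked how AS restrains the growth of these cells, and the targets of p53 include genes of cell-cycle arrest, cell death and growth control.

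p53 is kept at a low level by the ubiquitin ligase Mdm2 and is released from it after DNA damage and other stresses. It then binds DNA as a tetramer at a pair of adjacent half-sites and switches on genes that halt the cell cycle, repair DNA, restrain growth or trigger death. Mdm2 is itself a target, which closes a negative feedback loop. 4T1 is generally described as a line without functional p53, and many of these genes can also be induced by other factors.

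The values are RPKM, reads scaled by the authors to exon length and to library size. Behind them lay 44909683 reads for AS and 50820728 for the vehicle. Whole reads could be recovered for all 10 genes, from 40 reads for Btg2 with AS to 3509 for Mdm2 with AS. Reads without molecular identifiers are not independent molecules. A log2 fold change here compares AS with vehicle after adding 0.1 RPKM to each library, so that changes of low genes come out too small, while the interval beside it is the 95% Clopper-Pearson interval of the log2 ratio of the reads. The median log2 fold change of all genes was 0.07, so 60.9% of the genes were higher with AS by any amount. Centring on that median left 6 of the 10 genes above it.

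The label of the cells was set against cell type markers. All 8 epithelial markers listed (Epcam, Cdh1, Krt8, Krt18, Krt19, Krt14, Cldn4 and Cldn7) were in the table, with a summed level of 1717 RPKM with AS and 2181.5 with the vehicle, and 6 of them were lower with AS and 2 higher. The log2 fold changes ran from -0.96 for Krt14, which with Krt19 was beyond 1.5-fold, to 0.42 for Cldn4, and Cdh1 was at 0.17. Of 7 fibroblast markers 4 were in the table (6.08 and 5.67 RPKM in sum, most of it Pdgfra). Of 8 immune markers 4 were in it (26.9 and 30.5 RPKM, most of it Cd68). None of 5 endothelial markers was in the table. The part of these markers in the results was not tested, and fewer cells of a type cannot be told apart from less RNA per cell in bulk RNA.

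To show what the 10 genes share in sequence, the promoter windows of RefSeq (GRCm38.p6, 250 bases before to 50 after a start site) were searched on both strands for 3 motifs, none of which contains another. Windows were matched by symbol for 8 of the genes, 11 windows in all, and none was matched for Trp53inp1 or Zmat3. A gene counted as holding a motif when any of its windows did. The p53 half-site, the decamer that p53 binds in pairs, was matched in the windows of 5 of these 8 genes. Among the 9680 genes of the table with a window, 8.19% held it, and among the other p53 targets listed further below 14 of 55 did. These stretches are shown because they carry the matches, which are in capitals, 5′ to 3′ on the strand of the gene.
Cdkn1a, chr17:29090881-29090962, plus strand: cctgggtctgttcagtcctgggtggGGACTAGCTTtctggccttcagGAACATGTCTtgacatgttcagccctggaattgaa
Mdm2, chr10:117710910-117710969, minus strand: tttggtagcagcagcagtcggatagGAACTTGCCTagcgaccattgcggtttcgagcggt
Ccng1, chr11:40755437-40755496, minus strand: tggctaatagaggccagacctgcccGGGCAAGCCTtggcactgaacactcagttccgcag
Aen, chr7:78895912-78895971, plus strand: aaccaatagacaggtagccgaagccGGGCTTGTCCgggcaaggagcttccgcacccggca
Sesn1, chr10:41887241-41887300, plus strand: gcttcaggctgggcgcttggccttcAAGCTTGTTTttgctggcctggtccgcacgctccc

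The window of Cdkn1a was the only one of these with 2 matches, 12 bases apart, and that gene was among the least expressed of the 10. In the other windows shown a single match was found. The window of Sesn1 lies at a start site inside the gene, which begins at chr10:41809935. Only exact matches were searched for. A decamer with a mismatch that adjoins a match, as in the stretches of Cdkn1a and Ccng1, was therefore not marked. The windows of Btg2 and Plk2 held the cyclic AMP response element TGACGTCA, a site of the ATF and CREB factors, which 3.66% of the genes with a window held.
Btg2, chr1:134079289-134079346, minus strand: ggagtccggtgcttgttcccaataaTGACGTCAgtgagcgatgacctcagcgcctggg
Plk2, chr13:110394957-110395014, plus strand: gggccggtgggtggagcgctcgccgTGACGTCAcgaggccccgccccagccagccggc

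The C/EBP-ATF element TGATGNAA, the kind of site bound by ATF4, was matched in 0 of the 8 genes and in 2.56% of all genes with a window. A match is a description of letters and not of binding, and these windows do not reach the p53 sites that lie farther from a start site.

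The levels of the genes spread widely in both libraries. With the vehicle they fell in the order Mdm2, Ccng1, Phlda3, Plk2, Sesn1, Aen, Trp53inp1, Cdkn1a, Btg2 and Zmat3, from 12.8 to 0.334 RPKM. Mdm2 stood at percentile 73.6 of all genes, while Cdkn1a stood at 7.64 and Zmat3 at 3.62. Neighbours whose exact Poisson intervals overlapped were Ccng1 and Phlda3 and, at the low end, each pair from Trp53inp1 to Zmat3. With AS the order was the same for the first 8 genes, and Zmat3 and Btg2 traded places with intervals that overlapped. Trp53inp1 then stood clear of Cdkn1a, and the intervals of Sesn1 and Aen overlapped.

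**Figure D1:**
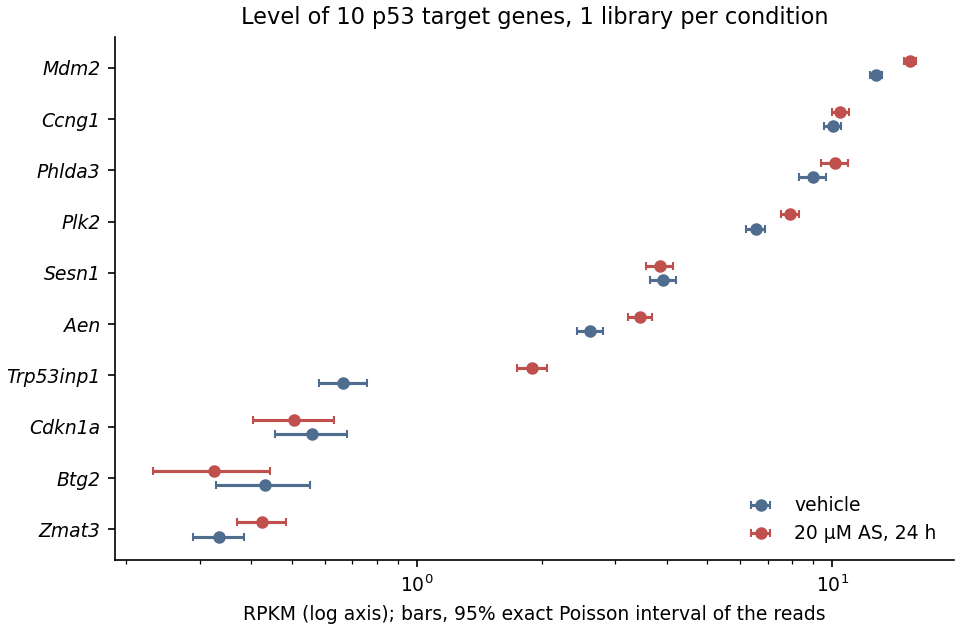
Level of each of the 10 p53 target genes in RPKM (log axis) in the vehicle library (blue) and the AS library (red), with 95% exact Poisson intervals of the reads as bars. The points of Trp53inp1 lie far apart, at 0.666 and 1.90 RPKM, whereas the intervals of Cdkn1a, Btg2, Sesn1, Ccng1, Phlda3 and Zmat3 overlap between the libraries. For Phlda3 and Zmat3 the interval of the ratio nevertheless lay above 0.

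To find whether AS shifted the p53 targets, each gene was compared between the libraries. A total of 1 of the 10 genes was higher with AS beyond 1.5-fold and 0 were lower. The same gene was beyond 2-fold, as were 0.662% of all genes upward and 0.31% downward. By any amount 7 genes were higher and 3 lower. The 10 genes had a median of 0.22 on the log2 scale, and of 0.17 over the 9 without Trp53inp1. For 6 of the genes the counting interval lay above 0, for 4 it held 0 and for 0 it lay below. Among the 12718 genes with whole reads in both libraries it lay above 0 for 38.2% and below for 20%. The interval narrows with the number of reads, and these shares were not matched on it.

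Trp53inp1 encodes a stress-induced protein that acts with p53 in cell death and takes part in autophagy. The gene occupies chr4:11156431-11174379 (GRCm38, plus strand). Its level was 1.90 RPKM in the AS library against 0.666 in the vehicle library, from 552 and 219 reads. This was the ratio farthest from 1 among the 10 genes, and no exon of another gene overlapped its exons in the annotation. The log2 fold change was 1.38, with an interval of 1.28 to 1.74, which was rank 26 from the highest in the table. With 1 RPKM added in place of 0.1 it was 0.80, still beyond 1.5-fold.

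The other genes of cell death differed little. Aen encodes an exonuclease that digests DNA in dying cells, and it stood at 3.45 RPKM in the AS library against 2.61 in the vehicle library, from 900 and 770 reads. Its log2 fold change of 0.39 (interval 0.26 to 0.54) came next after that of Trp53inp1, under 1.5-fold at its upper bound too. Phlda3, whose protein holds AKT away from the membrane, stood at 10.2 RPKM in the AS library against 8.99 in the vehicle library, from 711 and 712 reads. Its log2 fold change was 0.17 with an interval of 0.02 to 0.33, so that the lower bound was below the median of all genes.

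The feedback genes had the highest RPKM of the 10, though the interval of Ccng1 overlapped that of Phlda3. Mdm2 stood at 15.4 RPKM in the AS library against 12.8 in the vehicle library, and its log2 fold change of 0.27 had a narrow interval of 0.20 to 0.34 from 3509 and 3294 reads. That interval lay wholly above 0 and wholly below 1.5-fold. Ccng1, the gene of cyclin G1, which acts on Mdm2, stood at 10.5 RPKM in the AS library against 10.02 in the vehicle library. Its log2 fold change was 0.06, with an interval of -0.03 to 0.16, and its sign turned under the centring on the median of all genes. No difference in Ccng1 was therefore detectable at this depth.

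The genes of cell-cycle arrest had values on both sides of 0. Cdkn1a encodes p21, the inhibitor of cyclin-dependent kinases through which p53 halts the cell cycle. Its level was 0.508 RPKM in the AS library against 0.559 in the vehicle library, from only 81 and 101 reads. The log2 fold change of -0.12 had an interval of -0.58 to 0.30, so a difference was not detectable, and a level 1.5-fold higher with AS lay outside the counting interval. In the annotation 7.68% of its exon bases overlap an exon of a gene on the opposite strand, and it is not stated whether the reads were counted by strand. Btg2, an antiproliferative gene, was the lowest of the 10 with AS, at 0.325 RPKM from 40 reads, against 0.430 RPKM from 60 reads with the vehicle. Its log2 fold change of -0.32 had the widest interval, -1.02 to 0.19, which holds both no difference and a level more than 1.5-fold lower. Plk2, a polo-like kinase gene, went the other way, at 7.91 RPKM in the AS library against 6.55 in the vehicle library, which gave a log2 fold change of 0.27 and an interval of 0.17 to 0.38.

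Of the remaining genes, Sesn1 encodes a sestrin, which restrains mTORC1, and Zmat3 an RNA-binding zinc finger protein. Sesn1 stood at 3.84 RPKM in the AS library against 3.92 in the vehicle library, which gave a log2 fold change of -0.03 with an interval of -0.18 to 0.12. Zmat3 stood at 0.425 RPKM in the AS library against 0.334 in the vehicle library, from 218 and 194 reads. Its log2 fold change was 0.27 and its interval, 0.06 to 0.63, reached past 1.5-fold.

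**Figure D2:**
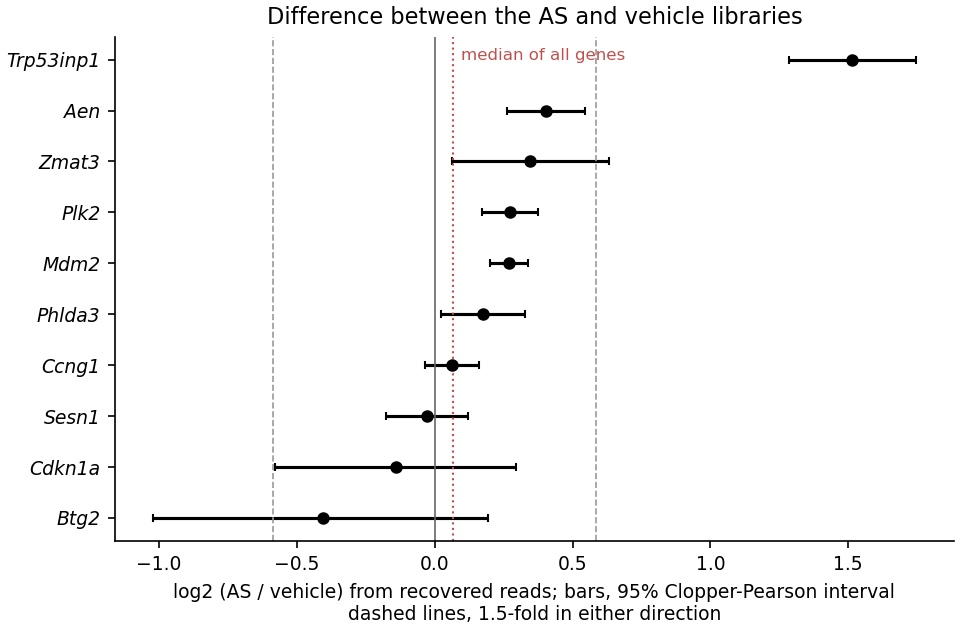
Log2 ratio of AS to vehicle from the recovered reads of each gene (points) with its 95% Clopper-Pearson interval (bars), against 0, the median of all genes (dotted) and 1.5-fold in either direction (dashed). Trp53inp1 is the only gene whose whole interval, 1.28 to 1.74, lies beyond the dashed lines, and the intervals of Ccng1, Sesn1, Cdkn1a and Btg2 hold 0.

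Among all genes of the table, Mdm2, Plk2 and Zmat3 took ranks 2844, 2813 and 2753 from the highest log2 fold change and Aen rank 1432. Ccng1 was near the middle at rank 7182, and Cdkn1a and Btg2 were at ranks 10987 and 13104. Phlda3 was at rank 4618 and Sesn1 at rank 9291. Apart from Trp53inp1 at rank 26, the genes thus ran from rank 1432 to rank 13104, of 14197 genes in all.

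**Figure D3:**
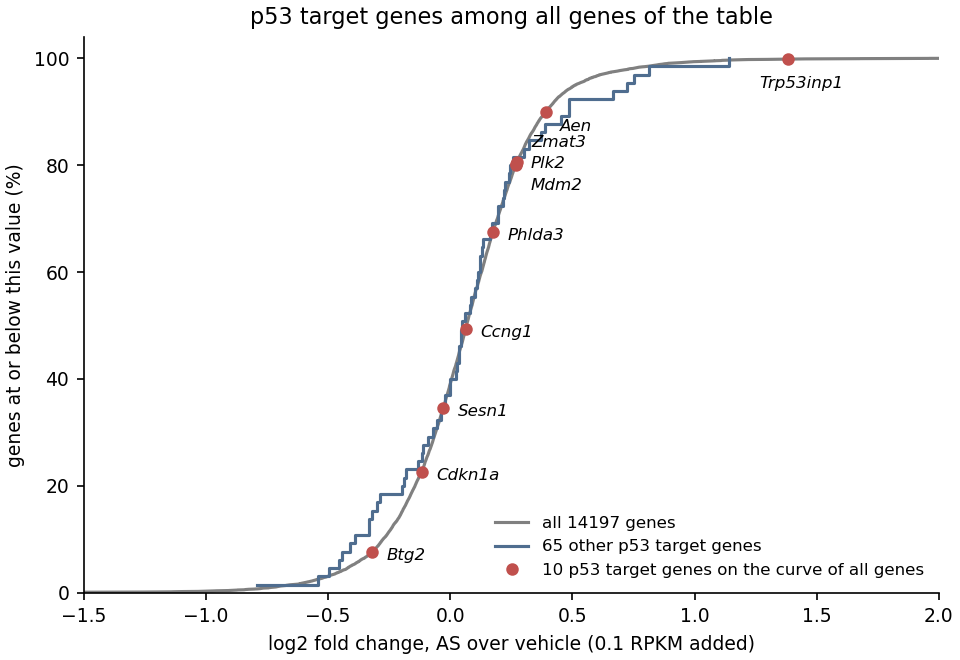
Share of genes (%) at or below each log2 fold change (0.1 RPKM added), for all genes of the table (grey) and for 65 other p53 targets (blue), with the 10 genes as red points on the grey curve. Trp53inp1 sits at the upper end at 1.38 and the other 9 genes between -0.32 and 0.39; the blue curve runs close to the grey.

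The other genes of the pathway were taken from a hand-written list of 72 further p53 targets, of which 65 were in the table, and a list of 24 p53 family members and regulators, of which 21 were. Of the 65 targets 5 were higher beyond 1.5-fold and 1 was lower, that is 7.69% and 1.54%. Of all genes 3.56% were higher and 2.01% lower beyond 1.5-fold. On the log2 scale their median was 0.05, which turned to -0.02 after centring on the median of all genes and to -0.0032 with upper-quartile scaling. The 14 genes of cell death held none beyond 1.5-fold in either direction, with log2 fold changes from -0.50 for Pidd1 to 0.24 for Triap1. Among them Bax, which permeabilizes mitochondria, stood at 34.6 RPKM in the AS library against 37.4 in the vehicle library. The 8 genes of DNA repair held none either, with log2 fold changes from -0.54 for Pcna to 0.37 for Xpc and a median of 0.11.

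The 5 higher targets were Klf4, Ephx1, Sesn2, Gadd45a and Plk3. Klf4, a transcription factor gene, stood at 1.85 RPKM in the AS library against 0.787 in the vehicle library, with a log2 fold change of 1.14, from 254 and 122 reads. Gadd45a, a stress gene of cell-cycle arrest, was abundant, at 73.2 RPKM in the AS library against 44.3 in the vehicle library, a log2 fold change of 0.72. Sfn, a gene of arrest in G2 that encodes stratifin, was the 1 lower target, at 41.9 RPKM in the AS library against 72.4 in the vehicle library and a log2 fold change of -0.79. Ephx1, the gene of microsomal epoxide hydrolase, had a log2 fold change of 0.81.

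Close relatives of the 10 genes did not always share their values. Sesn2 and Plk3 are named because they were beyond 1.5-fold, so a distance from Sesn1 and Plk2 was partly fixed by that choice. Mdm4, a relative of Mdm2 named whatever its value, had an interval of 0.27 to 0.40, which overlapped the 0.20 to 0.34 of Mdm2. Sesn2, the paralog of Sesn1, stood at 2.68 RPKM in the AS library against 1.55 in the vehicle library, which gave a log2 fold change of 0.75, and its interval of 0.56 to 1.01 did not overlap that of Sesn1. Plk3, of the same kinase family as Plk2, stood at 1.97 RPKM in the AS library against 1.21 in the vehicle library, which gave a log2 fold change of 0.67. Its interval of 0.41 to 1.01 lay above that of Plk2. These are comparisons of counting error between 2 libraries, and replicate error was not measured. An effect of AS and any other difference between the dishes of cells cannot be told apart.

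A list of 7 p53 targets that ATF4 or CHOP can also induce was set apart, of which Sesn2, Gadd45a, Bbc3, Tnfrsf10b and Ddit4 were in the table. Sesn2 and Gadd45a were higher beyond 1.5-fold, as given above, and so were 3.56% of all genes. Bbc3, the gene of the BH3-only protein PUMA, had a log2 fold change of 0.21, and Tnfrsf10b, a death receptor gene, one of -0.11. Ddit4, an inhibitor of mTORC1, went the other way, at 42.9 RPKM in the AS library against 53.6 in the vehicle library, with a log2 fold change of -0.32. Gdf15 and Pmaip1 were not analysed here.

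Trp53, the gene of p53, was measured in both libraries, at 3.52 RPKM in the AS library against 2.40 in the vehicle library, from 639 and 493 reads. Its log2 fold change of 0.53, with an interval of 0.38 to 0.73, was just under 1.5-fold, at rank 646 of the table. Read counts per gene do not show which p53 protein, if any, is made. Trp63, of the same family, was barely detected, at 0.154 RPKM from 58 reads with AS and 0.0633 from 27 with the vehicle. It was the only gene of the 21 beyond 1.5-fold, at a log2 fold change of 0.64. That value depends strongly on the 0.1 RPKM added, which is of the size of these levels. The reads alone gave a log2 ratio of 1.28, with a wide interval of 0.60 to 2.00. Mdm4, the partner of Mdm2 in holding p53 in check, stood at 5.82 RPKM in the AS library against 4.63 in the vehicle library, which gave a log2 fold change of 0.33. The 21 genes together had a median of -0.02, below that of all genes. By any amount 9 of the 21 were higher, as were 60.9% of all genes. Trp73 was not analysed here.

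**Figure D4:**
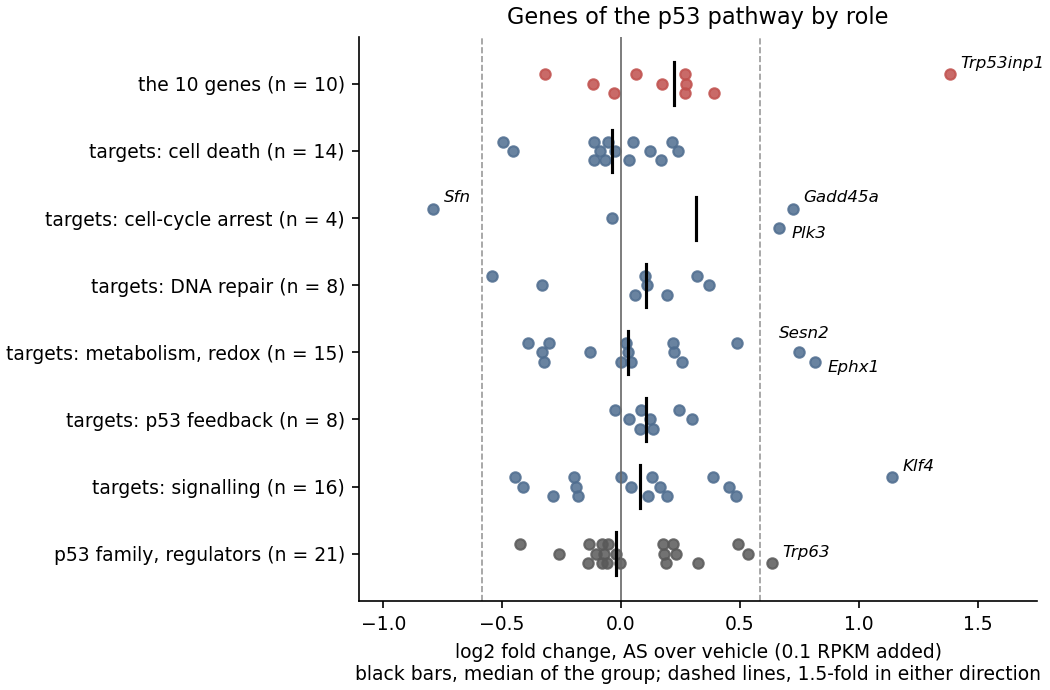
Log2 fold change (0.1 RPKM added) of each gene of the p53 pathway by role, with the median of each group as a black bar and 1.5-fold in either direction dashed. Genes beyond 1.5-fold carry their names, and they are Trp53inp1, Gadd45a, Plk3, Sesn2, Ephx1, Klf4 and Trp63 on the higher side and Sfn on the lower.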

How the data were processed

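The authors deposited 1 table of 14197 genes with an RPKM value for each of the 2 libraries, which the header does not name as such and which was found from the values. The submitters' processing notes name fastp 0.23.4, STAR 2.5.3a, featureCounts and the human build GRCh38. With exon lengths of GENCODE M21 (mouse GRCm38), however, the values gave whole reads in both libraries, to within 0.02 reads, for 94.2% of 13502 uniquely named genes, and coordinates are those of that annotation. The filter on low genes is not given in the sources used here, no gene was listed at 0, and the table's fold change, mean CPM, p-value and FDR columns were not used. RNA was prepared with a stranded mRNA kit.

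Log2 ratios of RPKM (0.1 added) were compared with thresholds of 1.5-fold and 2-fold, the folds the study names, with no test, since each condition had 1 library. Recovered reads gave 95% Clopper-Pearson intervals of the ratio and exact Poisson intervals of the level. Recovery was tested on simulated data. Sequences are from RefSeq. Named are the 10 genes, the other targets and regulators beyond 1.5-fold, Trp53, Trp63, Trp73 and Mdm4, and the targets shared with ATF4 or CHOP. In contrast, Pidd1, Triap1, Bax, Pcna, Xpc, Krt14, Krt19, Cldn4, Cdh1, Cd68 and Pdgfra were chosen after their values were seen. The genes and lists were chosen with earlier results of these data known. Computations ran in Python 3.11.15 with scipy 1.17.1.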

Additional observations from a re-analysis of the deposited data

How the results depend on the processing

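The alternatives were 1 RPKM or nothing added, centring on the median of all genes, upper-quartile scaling, the recovered reads with 0.5 added, and a minimum mean of 1 RPKM, which left out 3 of the 10 genes (Cdkn1a, Btg2 and Zmat3). Under each of them 1 gene was higher beyond 1.5-fold and 0 were lower. The median log2 fold change of the 10 genes ranged from 0.13 with 1 RPKM added to 0.27 with the minimum mean. That of the other p53 targets ranged from -0.02 to 0.08 and was below 0 under both scalings, centring and upper quartile. The sign stayed the same for 9 of the 10 genes, the exception being Ccng1 at -0.0032 after centring. The value of Trp53inp1 ranged from 0.80 with 1 RPKM added to 1.51 with nothing added. The value of 0.80 was below its counting interval, but that interval is of the read ratio with nothing added. No paired analysis was possible because each condition had 1 library, and for the same reason no library could be left out. Depth limits Btg2 and Cdkn1a most, at 40 to 101 reads per library.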
